A study of Homo sapiens with 12 samples.

Results

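The giant genes described here are those that span at least 600 kb of the genome in the deposited annotation, leaving out long non-coding loci with names of the LINC, MIR, -AS, -DT, HG and clone types. The rule used span and name alone and no measured value. It took 221 of 60583 genes, and 69 further genes of that span were left out by name. The shortest, MAPK10, spanned 604619 bp and the longest, RBFOX1, 2473539 bp, with a median of 859 kb. 67 genes spanned 1 Mb or more and 7 spanned 2 Mb or more, and 211 of the 221 were protein-coding.

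The assay was TT-seq, which reads nascent transcripts: RNA made during a short labelling period with 4-thiouridine was fragmented, pulled down and sequenced, so that reads fell over introns and exons alike. There were 12 libraries in 4 groups of 3: U2OS cells with siCtrl, U2OS cells with siINTS11, and U2OS-AsiSI cells with either siRNA, all 48 h after transfection. U2OS is a human osteosarcoma line. U2OS-AsiSI cells carry the restriction nuclease AsiSI fused to the oestrogen receptor domain (AsiSI-ER) and had all received OHT, the ligand that moves such a fusion into the nucleus, for 1 h, whereas the labels give no OHT for U2OS. INTS11 is the endonuclease of Integrator, a complex that binds RNA polymerase II near promoters and cleaves nascent RNA. Nothing in the labels places the 3 libraries of a group in separate cultures, so p-values measure the spread between these libraries, which may be technical.

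A gene of this length is almost all intron, and a polymerase that starts at its promoter needs hours to reach its end. Giant genes are enriched for neuronal adhesion molecules, synaptic proteins, ion channels and axon guidance factors, and many of them coincide with common fragile sites, regions that break when replication is slowed.

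Library totals ran from 20704611 to 38065726 counts in genes. INTS11 itself had 277, 314 and 286 counts in U2OS siCtrl against 260, 216 and 225 in U2OS siINTS11, a log2 fold change of -0.42 ± 0.09 (SE) with an adjusted p of 6.08e-05. In U2OS-AsiSI it had 284, 351 and 269 counts against 258, 212 and 277. The log2 fold change was -0.13 ± 0.08 with an adjusted p of 0.172, so no change was called in that line. Nascent reads over the whole span do not measure the mature INTS11 mRNA or its protein. They cannot show in either line whether the knockdown worked. siINTS11 below means the libraries labelled so. Of 8 mesenchymal and osteoblast markers 7 had at least 10 reads in every library, and none of 3 blood markers did. So did 4 of 4 epithelial, 2 of 2 endothelial and 5 of 6 neuronal and glial markers. This count therefore set only the blood list apart. The summed level of the mesenchymal list was 1551 to 1640 CPM (counts scaled to the size of the library) in U2OS siCtrl and 1130 to 1201 in U2OS siINTS11, and that of a list of 6 neuronal and glial markers was 380 to 403 and 532 to 558, most of it from RBFOX3. The 4 epithelial markers summed to 85.8 to 90.9 and 99.6 to 106 CPM and the 2 endothelial markers to 1.92 to 2.36 and 5.44 to 5.95, and in U2OS-AsiSI all 4 lists moved the same way. The part of any of these lists in the results on giant genes was not tested.

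Giant genes took up 5.88% ± 0.0803 (SD, n = 3) of the counts in U2OS siCtrl against 4.88% ± 0.0612 in U2OS siINTS11. In U2OS-AsiSI the share was 5.60% ± 0.0515 with siCtrl and 4.59% ± 0.0962 with siINTS11. The groups did not overlap in either line. The reads were unevenly spread over the genes: the 10 with the most reads (TENM2, NTM, PARD3, AUTS2, LPP, CDH13, CDK14, VPS13B, GPC6 and TENM3) held 27.7% of them, and the 27 genes with fewer than 100 reads per library held 0.082%. Per kilobase of span, NTM was highest in U2OS siCtrl at 2.85 ± 0.3 span RPKM (CPM divided by the span in kb), followed by TENM3 at 2.76 ± 0.115, TENM2 at 2.73 ± 0.118 and PARD3 at 2.63 ± 0.131. These 4 did not differ beyond their spread, and CDK14 came next at 2.13 ± 0.0435. DMD, the dystrophin gene, was among the least transcribed of the tested genes at 0.00085 span RPKM.

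Most giant genes carried fewer nascent reads with siINTS11, and a smaller group carried more. In U2OS-AsiSI 130 of the 218 that could be tested fell (59.6%), against 32.6% of all 20441 genes tested, and 40 rose (18.3%), against 35.4%. In U2OS 138 fell (63.3%, against 32.4% of all 20687 genes tested) and 47 rose (21.6%, against 34.5%). The median log2 fold change of the giant genes was -0.31 in U2OS-AsiSI and -0.29 in U2OS, where the medians over all genes tested were 0.03 and 0.02. A change was called at an adjusted p under 0.05 in edgeR's quasi-likelihood test over all genes. DLGAP2, CACNA1C and PWRN1 had too few reads to be tested. All levels are relative to the genes of the same library, since the yeast RNA that was added as a spike-in was not used here. With library totals alone as the scale, the median over all genes moved up to 0.22 in both lines, and 50.5% of giant genes fell and 30.3% rose in U2OS-AsiSI, with 48.6% and 28.9% in U2OS.

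The same direction was seen in both lines, which share no library. 128 giant genes fell in both (58.7%, against 27.9% of the 20121 genes tested in both) and 36 rose in both (16.5%, against 28.5%). None was called in opposite directions (0.298% of all genes were), 27 were called in 1 line only (12.4%, against 22% of all genes) and 27 in neither (12.4%, against 21.3%). Log2 fold changes in the 2 lines had Pearson's r of 0.966 and Spearman's rho of 0.971 across the 218 genes, which are not independent replicates, and of 0.925 and 0.909 across all genes tested in both. Falls of at least 2-fold were called at 18 of the 218 giant genes in U2OS-AsiSI and at 17 of 218 in U2OS. Over all genes tested 3.26% and 3.24% fell so far. Rises of at least 2-fold were called at 3 of the 218 giant genes in U2OS-AsiSI and at 5 of 218 in U2OS, whereas 9.73% and 9.62% of all genes rose so far. ESRRG and CCDC26 were among the giant genes that rose at least 2-fold in both lines.

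**Figure D1:**
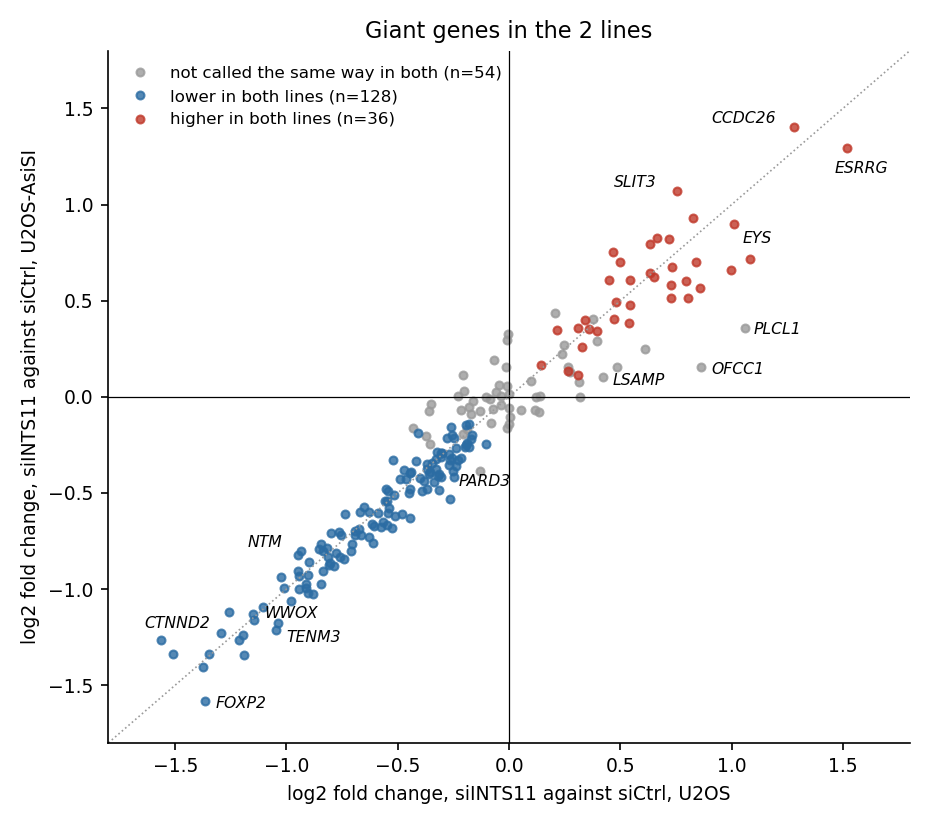
Log2 fold change of each of the 218 tested giant genes with siINTS11 against siCtrl, in U2OS (horizontal axis) and in U2OS-AsiSI (vertical axis). Blue points are the 128 genes called lower in both lines, red points the 36 called higher in both and grey points the other 54. The dotted line marks equal change. Most points lie at lower left, and no gene was called in opposite directions.

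ATRNL1, which encodes an attractin-like membrane protein (chr10:115093365-115948999, plus strand, hg38), fell in both lines on 1544 to 8611 reads per library. Its level was 243, 246 and 253 CPM in U2OS siCtrl against 91.4, 94.1 and 99.9 in U2OS siINTS11. In U2OS-AsiSI the 3 siCtrl libraries had 201, 181 and 182 CPM and the siINTS11 libraries 75.4, 68.3 and 71.3. Every siINTS11 library was below every siCtrl library, but the rule that named this gene asked for no overlap within each line. The level was 2.6-fold lower in U2OS and 2.65-fold lower in U2OS-AsiSI. The log2 fold changes were -1.38 ± 0.04 and -1.40 ± 0.05, with adjusted p of 3.81e-29 and 1.25e-20. TENM3, a teneurin that organises synapses from the cell surface (chr4:182143987-182803024, plus strand), had 1803, 1757 and 1906 CPM in U2OS siCtrl against 881, 844 and 914 in U2OS siINTS11. In U2OS-AsiSI it had 1640, 1491 and 1523 CPM against 712, 649 and 665. This is one of the most transcribed giant genes, and it was 2.07-fold lower in U2OS and 2.32-fold lower in U2OS-AsiSI.

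SLIT3, a secreted ligand of ROBO receptors (chr5:168661733-169301129, minus strand), went the other way. It had 53.3, 51.4 and 54.6 CPM in U2OS siCtrl against 90.7, 91.3 and 85.7 in U2OS siINTS11, and 53.6, 52 and 52.8 CPM in U2OS-AsiSI siCtrl against 111, 114 and 111 in U2OS-AsiSI siINTS11. The siCtrl libraries of the 2 lines were alike and all lay below every siINTS11 library. Within each line this absence of overlap was part of the rule that named SLIT3. The rise was 1.69-fold in U2OS and 2.1-fold in U2OS-AsiSI.

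The sequences just upstream of these 3 genes are shown because promoters dense in CG dinucleotides are the usual kind at broadly transcribed genes, and both directions of change are represented. They are the 250 bases before the RefSeq start (GRCh38.p14), 5′ to 3′ on the gene's strand, with each CG in capitals. ATRNL1 (chr10:115093115-115093364, plus strand) holds 39 CG in this stretch, TENM3 (chr4:182143713-182143962, plus strand) 20 and SLIT3 (chr5:169301140-169301389, minus strand) 16.
ATRNL1: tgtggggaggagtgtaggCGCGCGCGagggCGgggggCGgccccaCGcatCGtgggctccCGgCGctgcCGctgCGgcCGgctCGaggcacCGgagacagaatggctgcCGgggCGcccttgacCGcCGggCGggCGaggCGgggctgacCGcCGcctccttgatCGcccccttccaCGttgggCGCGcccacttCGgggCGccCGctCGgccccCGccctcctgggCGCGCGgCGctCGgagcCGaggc
TENM3: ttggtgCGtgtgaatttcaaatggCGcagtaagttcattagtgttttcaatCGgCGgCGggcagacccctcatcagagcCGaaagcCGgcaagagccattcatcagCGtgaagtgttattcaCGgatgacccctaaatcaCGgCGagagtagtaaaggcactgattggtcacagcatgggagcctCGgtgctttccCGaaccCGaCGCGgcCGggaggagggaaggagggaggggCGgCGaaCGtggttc
SLIT3: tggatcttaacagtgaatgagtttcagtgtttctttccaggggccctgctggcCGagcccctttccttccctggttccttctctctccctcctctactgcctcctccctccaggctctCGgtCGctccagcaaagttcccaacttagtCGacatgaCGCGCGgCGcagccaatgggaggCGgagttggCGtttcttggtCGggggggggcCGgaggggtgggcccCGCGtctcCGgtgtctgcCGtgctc

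Of the 221 giant genes 178 matched a RefSeq promoter, and for 110 the RefSeq start lay within 1 kb of the start in the deposited table. In these 110, counted over 250 bases before to 50 bases after the start, the median number of CG was 29.5 in the 64 genes that fell in both lines, 21 in the 25 that rose in both and 19 in the other 21. Over all matched promoters of tested genes, at any distance, the medians were 19.5 (104 genes), 19 (29) and 17 (43), so the gap was seen only among the 110. Their ranges, 4 to 55, 2 to 53 and 1 to 47, overlapped almost fully. Over the 176 tested genes with a matched promoter, the number of CG had a Spearman's rho of -0.03 with the log2 fold change in U2OS-AsiSI and -0.07 in U2OS.

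The AsiSI site, gcgatcgc, reads the same on both strands and was present in 2 of the 178 promoters (1.12%, against 0.208% of the 35116 promoters in the table), those of KAZN and TMEM132D. That of TMEM132D, a transmembrane protein gene, is shown because it carries the nuclease's sequence upstream of a gene that rose. It covers chr12:129904026-129904275 on the minus strand, with the site in capitals starting 175 bases before the start.
TMEM132D: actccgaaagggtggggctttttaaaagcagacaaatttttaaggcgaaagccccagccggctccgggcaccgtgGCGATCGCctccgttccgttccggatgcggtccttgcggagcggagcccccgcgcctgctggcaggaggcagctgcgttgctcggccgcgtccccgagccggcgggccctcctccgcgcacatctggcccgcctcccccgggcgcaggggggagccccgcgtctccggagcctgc

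TMEM132D had 4.46, 4.55 and 3.72 CPM in U2OS siCtrl, 6.46, 7.07 and 6.3 in U2OS siINTS11, 4, 3.58 and 3.39 in U2OS-AsiSI siCtrl and 5.76, 6.85 and 6.71 in U2OS-AsiSI siINTS11. It rose 1.55-fold in U2OS, which has no AsiSI, and 1.74-fold in U2OS-AsiSI, a difference in log2 fold change of 0.13 ± 0.15 (adjusted p 0.711). The AsiSI line did not differ detectably from U2OS at this gene under siCtrl (log2 fold change -0.19 ± 0.12, adjusted p 0.238). KAZN, which encodes kazrin, a protein of cell junctions, had 256 ± 9.57 CPM in U2OS siCtrl and 218 ± 7.38 in U2OS-AsiSI siCtrl, a log2 fold change of -0.21 ± 0.04 (adjusted p 0.000226), which is near the median of the giant genes in that comparison (-0.15). Cutting at these sites was not analysed here. The letters tataaa, read on both strands, were in 13 of the 178 promoters (7.30%) and in 11.5% of all.

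The 5 longest genes did not move together. DLG2, a synaptic scaffold protein gene of 2172911 bp, had 825, 889 and 831 CPM in U2OS siCtrl against 398, 362 and 422 in U2OS siINTS11, and 767, 775 and 718 against 365, 349 and 355 in U2OS-AsiSI. It fell 2.15-fold and 2.13-fold, and every siINTS11 library lay below every siCtrl library. PTPRD, a receptor phosphatase gene of 2298478 bp, rose slightly, with log2 fold changes of 0.22 ± 0.08 in U2OS and 0.35 ± 0.09 in U2OS-AsiSI. RBFOX1 (a neuronal splicing factor), CNTNAP2 (a neurexin relative at the axon) and DMD passed the test in neither line. RBFOX1 had 50.1 ± 3.14 CPM in U2OS siCtrl against 46.6 ± 1.65 in U2OS siINTS11, and 44.9 ± 3.01 and 45.1 ± 2.42 in U2OS-AsiSI. CNTNAP2 was between 6.08 and 7.62 CPM in all 12 libraries except 1 U2OS siCtrl library at 5.73. DMD was between 1.72 and 2.39 CPM in all 12.

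Falls were less frequent among the longest of the giant genes. Of the 67 that span 1 Mb or more 31 fell in U2OS-AsiSI (46.3%) and 33 in U2OS (49.3%), and of the 151 between 600 kb and 1 Mb 99 (65.6%) and 105 (69.5%). The longer ones also had the lower median level in U2OS siCtrl, 0.0524 against 0.158 span RPKM, and the difference between these classes was not tested. Across the 218 genes span had a Spearman's rho of 0.04 with the log2 fold change in U2OS-AsiSI and 0.05 in U2OS. Among shorter protein-coding genes in U2OS-AsiSI, 18.8% fell below 30 kb, 46.6% from 30 to 100 kb, 66.2% from 100 to 300 kb and 64.5% from 300 to 600 kb. The share of falls thus climbed with span up to the class of 100 to 300 kb and was 59.6% in the giant genes. Median log2 fold changes in the same order were 0.10, -0.11, -0.28, -0.35 and -0.31. In U2OS the shares were 18.2%, 46.9%, 65.3%, 64.6% and 63.3%. Genes next to the limit of 600 kb behaved in different ways: just inside it, MAPK10, a JNK kinase gene, had log2 fold changes of 0.08 in U2OS-AsiSI and 0.31 in U2OS, and KHDRBS2 -1.34 and -1.51. Just outside it, NFIA had -0.54 and -0.50 and SNX29 -0.32 and -0.27.

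**Figure D2:**
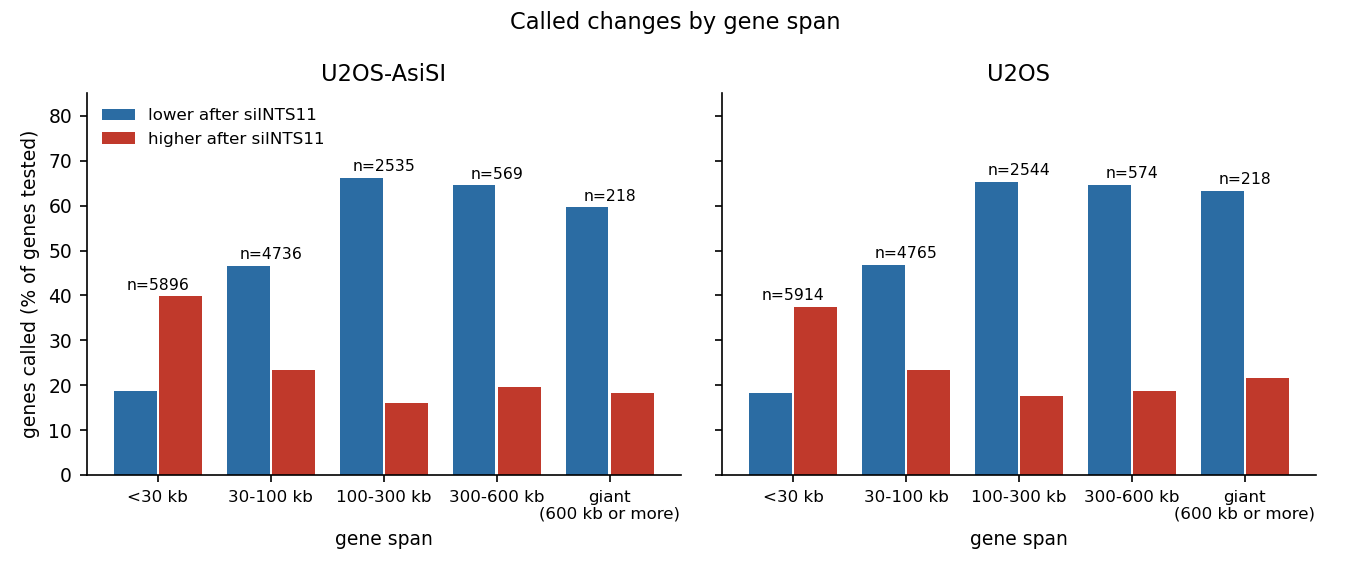
Share of tested genes called lower (blue) or higher (red) with siINTS11 against siCtrl, in % of the genes tested, for protein-coding genes in 4 classes of span and for the giant genes, in U2OS-AsiSI (left) and U2OS (right). n is the number of genes tested. The blue bars climb up to the class of 100 to 300 kb and the giant genes stand at 59.6% and 63.3%.

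The genes that fell and those that rose lay at different levels. The 128 genes that fell in both lines had a median of 0.334 span RPKM and 8165 reads in U2OS siCtrl, the 36 that rose in both 0.0101 span RPKM and 268 reads, and the other 54 genes 0.00923. To keep the level and the fold change from sharing libraries, the genes were placed in bands by their level in U2OS siCtrl and their changes were taken from U2OS-AsiSI. Of the 23 genes at 1 span RPKM or more all fell. From 0.3 to 1 span RPKM 47 of 52 fell and 1 rose, and from 0.1 to 0.3 it was 27 and 4 of 37. From 0.03 to 0.1 span RPKM 21 of 32 fell and 6 rose, from 0.01 to 0.03 it was 9 and 8 of 24, and below 0.01 it was 3 and 21 of 50. With the lines exchanged, all 21 genes in the top band fell, and 7 fell and 27 rose of 53 below 0.01 span RPKM. Spearman's rho between level in one line and change in the other was -0.55 for changes in U2OS-AsiSI and -0.51 for changes in U2OS.

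The bands also differ in depth. The median number of reads in U2OS siCtrl ran from 101 per library below 0.01 span RPKM to 40711 in the top band. In U2OS-AsiSI 48% of the genes were called in the former and 100% in the latter. Read numbers in this paragraph are those of U2OS siCtrl, which set the bands, and not of the U2OS-AsiSI libraries tested. In the bottom band 65.3% of protein-coding genes of 30 to 100 kb were called, where the median was 10 reads in U2OS siCtrl. Their median log2 fold change was 1.00, against 0.26 for the giant genes of that band. The part of depth in the share called was not tested. Protein-coding genes of 300 to 600 kb ran the same way: 102 of 120 fell and 4 rose at 1 span RPKM or more, and 12 fell and 42 rose of 87 below 0.01. At 30 to 100 kb 1302 of 2183 fell and 279 rose in the top band. In the bottom band 4 fell and 137 rose of 216, with a median of 10 reads in U2OS siCtrl. The count filter could keep a gene through the siRNA group where it was higher, so at such depth it favoured rises. The order of the bands was shared by genes of 300 to 600 kb, whose bottom band had a median of 55.7 reads. The part of the filter in this order was not tested.

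**Figure D3:**
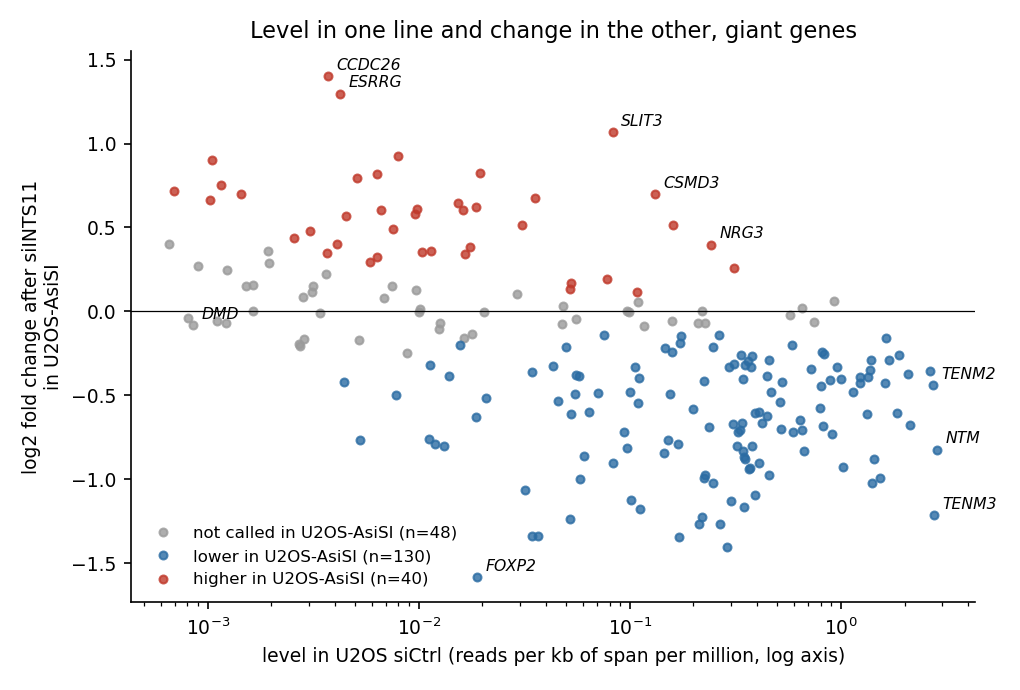
Level of each giant gene in U2OS siCtrl (horizontal axis, span RPKM, log axis) against its log2 fold change with siINTS11 in U2OS-AsiSI (vertical axis). Blue points were called lower (130 genes), red points higher (40) and grey points not called (48). All genes at 1 or more on the horizontal axis are blue, and the red points lie mostly at the left.

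FOXP2, a forkhead transcription factor gene linked to speech, had the greatest fall of all giant genes in U2OS-AsiSI. It had 12.3, 11.8 and 10.4 CPM in U2OS siCtrl against 4.93, 3.9 and 4.47 in U2OS siINTS11, and 9.63, 9.66 and 8.37 against 2.93, 2.7 and 3.61 in U2OS-AsiSI. It was 2.58-fold lower in U2OS and 3-fold lower in U2OS-AsiSI, from 61 to 411 reads per library. CTNND2, which encodes the delta-catenin of neuronal junctions, had 205, 199 and 188 CPM in U2OS siCtrl against 65, 66 and 69 in U2OS siINTS11, and 178, 164 and 152 against 71.3, 66.1 and 69.8 in U2OS-AsiSI. The siINTS11 libraries of the 2 lines were close to each other, while the siCtrl libraries were higher in U2OS. The fall was 2.96-fold in U2OS and 2.4-fold in U2OS-AsiSI.

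SOX5, a transcription factor of cartilage and neural development, fell from 276 ± 14.5 to 119 ± 9.21 CPM in U2OS and from 221 ± 10.4 to 92.9 ± 6.17 in U2OS-AsiSI. CDH12, a type II cadherin, fell from 241 ± 12.7 to 98 ± 8.29 and from 223 ± 4.5 to 96.1 ± 5.61. GRIK2, a kainate receptor subunit, fell from 46.3 ± 2.32 to 20.2 ± 0.837 and from 40.8 ± 3.42 to 17.4 ± 0.617. AGBL4, a carboxypeptidase that trims tubulin tails, fell from 51.2 ± 1.64 to 20.1 ± 0.379 and from 43.3 ± 1.93 to 17.3 ± 0.771, and KHDRBS2, an RNA-binding protein of the STAR family, from 22.3 ± 2 to 7.81 ± 0.193 and from 17.3 ± 1.43 to 6.87 ± 0.0674. DISC1FP1, a non-coding gene named for a fusion with DISC1, fell from 113 ± 1.24 to 49.4 ± 3.15 and from 70.5 ± 3.26 to 28 ± 2.05 CPM. The rule that named these 6 genes asked for no overlap between the siRNA groups, and the falls lay between 2.28-fold and 2.85-fold.

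**Figure D4:**
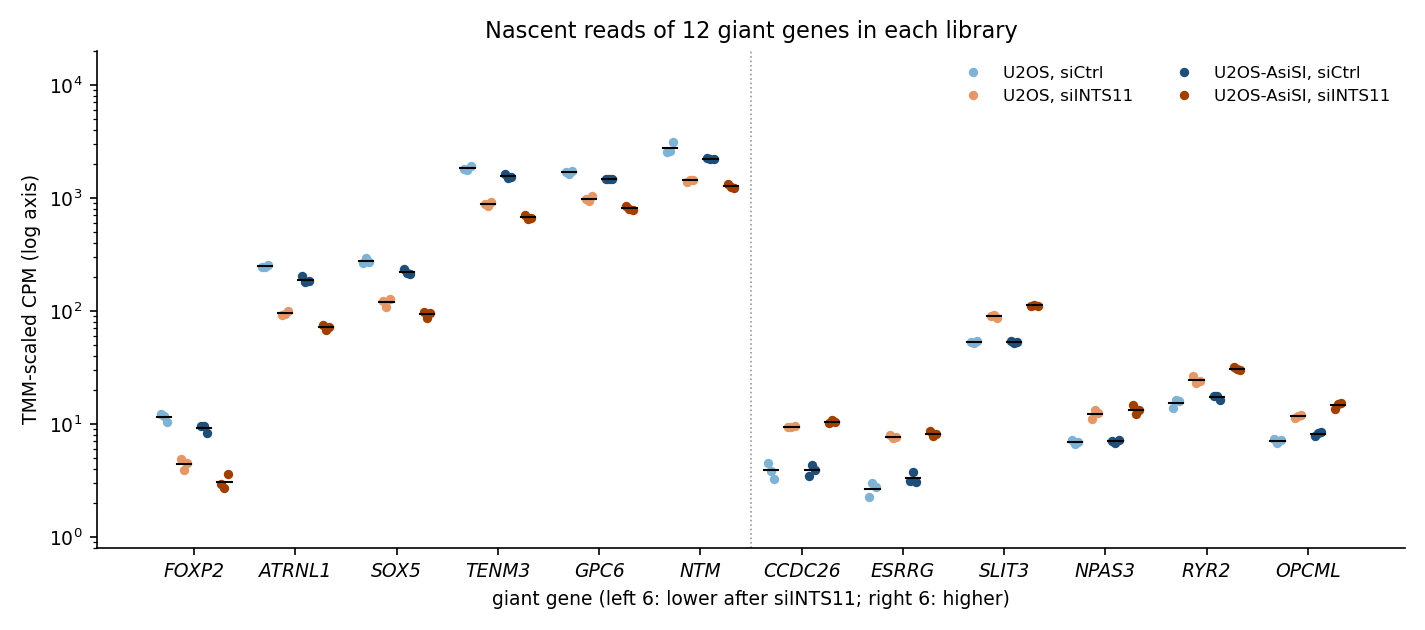
Level of 12 giant genes in each library in TMM-scaled CPM (vertical log axis). Points are single libraries, 3 per group, and black bars the group means. The left 6 genes fell and the right 6 rose. Most were chosen by a rule that asked for no overlap between the siRNAs, so their separation is no finding, and the genes that rose lie at lower levels than most of those that fell.

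The giant genes that rose at least 2-fold in both lines, ESRRG and CCDC26, had few reads under siCtrl. The rule that named them set its read minimum on the higher group, so genes with few siCtrl reads could enter. Their rise was measured against the same siCtrl libraries, so their low level there is no separate finding. ESRRG, an orphan nuclear receptor gene, had 2.26, 2.97 and 2.79 CPM in U2OS siCtrl against 8.04, 7.45 and 7.66 in U2OS siINTS11, and 3.12, 3.74 and 3.03 against 8.65, 7.87 and 8.08 in U2OS-AsiSI. These values rest on 62 to 120 reads per siCtrl library and 178 to 269 per siINTS11 library. CCDC26, a non-coding gene, had 4.53, 3.86 and 3.25 CPM against 9.39, 9.33 and 9.51 in U2OS and 3.46, 4.33 and 3.9 against 10.2, 10.9 and 10.3 in U2OS-AsiSI. ESRRG rose 2.87-fold and 2.46-fold and CCDC26 2.43-fold and 2.64-fold, and the absence of overlap was part of the rule that named them.

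NPAS3, a neuronal transcription factor gene, rose from 6.94 ± 0.296 to 12.3 ± 1.15 CPM in U2OS and from 7 ± 0.237 to 13.4 ± 1.17 in U2OS-AsiSI. EYS, a gene of photoreceptor matrix, rose from 2.08 ± 0.127 to 4.18 ± 0.235 and from 2.53 ± 0.49 to 4.72 ± 0.503. RYR2, the cardiac calcium release channel, rose from 15.4 ± 1.31 to 24.5 ± 1.64 and from 17.3 ± 0.745 to 30.9 ± 0.977. PCAT1, a non-coding gene first described in prostate cancer, rose from 30.6 ± 1.79 to 50.9 ± 2.51 and from 25.1 ± 0.612 to 40.5 ± 1.42. 12.7% of its span is shared with other genes of its strand. CSMD3, a large membrane protein gene with CUB and sushi domains, is an exception in level: it had 145, 154 and 182 CPM against 285, 287 and 287 in U2OS and 191, 170 and 212 against 338, 317 and 285 in U2OS-AsiSI, and its 0.132 span RPKM in U2OS siCtrl lies above the level of most genes that rose.

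By role, cell adhesion molecules and synapse organisers were the largest list, and 28 of 46 tested fell (60.9%) and 7 rose in U2OS-AsiSI, with 29 (63.0%) and 8 in U2OS. These shares of falls are those of the giant genes at large (59.6% and 63.3%) and of the 46 genes in no role list (60.9% and 63.0%). The median log2 fold change was -0.41 in U2OS-AsiSI, beside -0.31 for all giant genes. All 3 teneurins fell in both lines: TENM2 went from 2670 ± 116 to 2048 ± 75.5 CPM in U2OS and from 2410 ± 74.4 to 1792 ± 60.3 in U2OS-AsiSI, and TENM4 had log2 fold changes of -0.41 and -0.19. The families named here were picked after their values had been seen. Of the 4 cadherins CDH12, CDH13 and CDH18 fell in both lines, and CDH4 had log2 fold changes of -0.06 in U2OS and 0.02 in U2OS-AsiSI. Among adhesion receptors coupled to G proteins ADGRL2, ADGRL3, ADGRB3 and ADGRV1 all fell, ADGRL3 the most, from 265 to 119 CPM in U2OS and from 223 to 103 in U2OS-AsiSI.

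The IgLON family of neuronal adhesion proteins split. NTM (chr11:131370478-132336822, plus strand) had 2568, 2609 and 3089 CPM in U2OS siCtrl against 1390, 1447 and 1437 in U2OS siINTS11, and 2251, 2195 and 2186 against 1335, 1235 and 1212 in U2OS-AsiSI, a fall of 1.93-fold and 1.77-fold. NEGR1 fell from 1010 to 741 CPM in U2OS and from 1047 to 757 in U2OS-AsiSI. OPCML (chr11:132414977-133532519, minus strand) had 7.34, 6.81 and 7.19 CPM against 11.3, 11.7 and 11.9 in U2OS and 7.84, 8.29 and 8.48 against 13.6, 14.9 and 15.3 in U2OS-AsiSI, a rise of 1.64-fold and 1.77-fold. Per kilobase OPCML stood at 0.00636 span RPKM in U2OS siCtrl, where NTM stood at 2.85. LSAMP rose in U2OS, from 39.1 ± 4.81 to 52.2 ± 3.53 CPM, and not detectably in U2OS-AsiSI, from 30.1 ± 1.92 to 32.6 ± 1.25.

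In other families the order of levels was not kept. CSMD1 and CSMD2 fell and CSMD3 rose, and CSMD3 at 0.132 span RPKM lay between CSMD1 at 0.0996 and CSMD2 at 0.365. Among catenins CTNND2 at 0.212 span RPKM and CTNNA3 at 0.00777 fell, and CTNNA2 at 0.0153 rose, from 22.5 to 34.8 CPM in U2OS and from 19.5 to 30.6 in U2OS-AsiSI. NRXN3 and NLGN1, a presynaptic and a postsynaptic partner, fell in both lines with log2 fold changes of -0.74 and -0.95 in U2OS.

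Of 10 axon guidance genes 4 fell (40%, against 59.6% of giant genes) and 3 rose (30%, against 18.3%) in U2OS-AsiSI. In U2OS 5 fell (50%, against 63.3%) and 3 rose (30%, against 21.6%). ROBO1 and ROBO2, receptors for SLIT proteins, fell, with log2 fold changes of -0.25 and -0.76 in U2OS-AsiSI and -0.19 and -0.85 in U2OS, whereas the ligand gene SLIT3 rose. DCC, the netrin receptor, rose from 20.8 ± 3.36 to 30.3 ± 2.99 CPM in U2OS and from 25.8 ± 0.869 to 34 ± 1.5 in U2OS-AsiSI. EPHA6, an ephrin receptor, fell from 88.3 ± 5.79 to 52.3 ± 2.96 and from 76.7 ± 3.76 to 47.1 ± 1.15, and DAB1, the adaptor of reelin signalling, from 81.4 ± 5.56 to 48.7 ± 4.84 and from 60.6 ± 2.2 to 40 ± 3.25. NRG3, a ligand of ERBB4, rose from 269 ± 21.7 to 340 ± 12.8 and from 278 ± 11.2 to 369 ± 27.2 CPM, while ERBB4 itself was called in neither line.

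The receptor tyrosine phosphatases gave 2 falls (40%, against 59.6% of giant genes) and 3 rises (60%, against 18.3%) of 5 in U2OS-AsiSI. In U2OS there were 2 falls (40%, against 63.3%) and 2 rises (40%, against 21.6%). PTPRM fell from 1356 ± 69.4 to 963 ± 24.6 CPM in U2OS and from 1212 ± 39.6 to 909 ± 37.2 in U2OS-AsiSI, and PTPRG from 1246 ± 63.5 to 1008 ± 25.7 and from 1126 ± 37.8 to 928 ± 47.7. Both stand above 1 span RPKM in U2OS siCtrl (1.61 and 1.69). PTPRT, at 0.00306 span RPKM, rose from 3.42 to 5 CPM in U2OS and from 3.33 to 4.67 in U2OS-AsiSI, as did PTPRD at 0.00367. PTPRN2 rose in U2OS-AsiSI from 76 ± 2.24 to 87.5 ± 1.35 CPM and had 81.3 ± 2.36 and 77.4 ± 3.02 in U2OS, where it was not called.

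Of the ion channels and their partners 4 of 13 tested fell (30.8%, against 59.6% of giant genes) and 5 rose (38.5%, against 18.3%) in U2OS-AsiSI. In U2OS 4 fell (30.8%, against 63.3%) and 4 rose (30.8%, against 21.6%). KCNMA1, the calcium-activated BK potassium channel, had 284, 286 and 289 CPM against 138, 158 and 151 in U2OS and 284, 250 and 254 against 143, 132 and 142 in U2OS-AsiSI, a fall of 1.92-fold and 1.9-fold. FGF12, an intracellular partner of sodium channels, fell from 97 ± 2.95 to 73.8 ± 2.74 and from 97.3 ± 7.69 to 69.8 ± 5.15, and its relative FGF13 fell too. FGF14 rose, from 0.708 to 1.42 CPM in U2OS and from 0.752 to 1.21 in U2OS-AsiSI, but on few reads, where the count filter favoured rises. CACNA2D3, a calcium channel subunit, and TRPM3, a heat-gated cation channel, rose with log2 fold changes of 0.61 each in U2OS-AsiSI. With 13 genes, the list's shares are coarse, and no test compared it with the others.

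The 5 glutamate receptor genes gave 4 falls (80%) and no rise in each line. Of the giant genes 59.6% fell and 18.3% rose in U2OS-AsiSI, and 63.3% and 21.6% in U2OS, and 5 genes give only a coarse share. GRM8, a metabotropic receptor, fell from 49.3 ± 3.06 to 26.4 ± 0.462 and from 41.2 ± 2.61 to 22.9 ± 0.481, and GRID1 from 610 to 388 and from 508 to 344 CPM. GRM7 had log2 fold changes of -0.01 in U2OS and -0.16 in U2OS-AsiSI and was called in neither.

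Of 18 transcription and chromatin regulators 13 fell (72.2%) and 3 rose (16.7%) in each line. Among the giant genes at large 59.6% fell and 18.3% rose in U2OS-AsiSI, and 63.3% and 21.6% in U2OS. SOX6 fell with SOX5, from 173 ± 5.63 to 85.9 ± 2.26 CPM in U2OS and from 146 ± 5.21 to 74.2 ± 1.96 in U2OS-AsiSI. FOXP1 fell less than FOXP2, with log2 fold changes of -0.26 and -0.20, but 99% of its span is shared with other genes of its strand, so its level is uncertain. The 3 that rose were NPAS3, ESRRG and DACH2. Of the RNA-binding proteins, RBMS3 fell from 326 ± 4.37 to 181 ± 14.6 CPM in U2OS and from 297 ± 3.83 to 152 ± 8.23 in U2OS-AsiSI, with 83.1% of its span shared.

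Kinases, phosphodiesterases and signalling enzymes gave 10 falls (62.5%, against 59.6% of giant genes) and 2 rises (12.5%, against 18.3%) among 16 tested in U2OS-AsiSI. In U2OS there were 10 falls (62.5%, against 63.3%) and 4 rises (25%, against 21.6%). KALRN, an exchange factor of dendritic spines, fell from 244 ± 8.98 to 127 ± 4.61 CPM in U2OS and from 183 ± 9.81 to 106 ± 5.91 in U2OS-AsiSI. PLCB1, a phospholipase, fell from 296 ± 9.41 to 174 ± 3.54 and from 273 ± 9.19 to 169 ± 8.95, and INPP4B, a phosphoinositide phosphatase, from 676 ± 20 to 469 ± 19.3 and from 635 ± 24.9 to 400 ± 22.8. The phosphodiesterases PDE4D, PDE10A and PDE1C all fell, with log2 fold changes of -0.36, -0.71 and -0.58 in U2OS-AsiSI. ALK, a receptor kinase gene, and RGS6, a regulator of G protein signalling, rose in both lines. CDK14, a cyclin-dependent kinase in none of the role lists, fell from 1581 ± 32.4 to 1060 ± 48.9 and from 1435 ± 41.8 to 906 ± 43.2 CPM.

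Among 30 cytoskeleton and trafficking genes 19 fell (63.3%, against 59.6% of giant genes) and 4 rose (13.3%, against 18.3%) in U2OS-AsiSI. In U2OS 22 fell (73.3%, against 63.3%) and 5 rose (16.7%, against 21.6%). PARD3, a polarity protein, had 1808, 1803 and 1965 CPM against 1477, 1530 and 1605 in U2OS and 1789, 1725 and 1704 against 1426, 1380 and 1318 in U2OS-AsiSI, a modest fall of 1.21-fold and 1.28-fold without overlap. Its relative PARD3B fell further, from 372 ± 11.5 to 212 ± 7.18 and from 308 ± 17.9 to 170 ± 10.3. EXOC6B, a subunit of the exocyst, fell from 667 ± 41.2 to 356 ± 21.1 and from 544 ± 32.7 to 288 ± 17. Of 15 extracellular matrix and heparan sulphate genes 8 fell (53.3%, against 59.6% of giant genes) and 4 rose (26.7%, against 18.3%) in U2OS-AsiSI. In U2OS 9 fell (60%, against 63.3%) and 5 rose (33.3%, against 21.6%). Both glypicans fell: GPC6 from 1686 ± 47.9 to 977 ± 49.5 and from 1470 ± 13.5 to 807 ± 39.6 CPM, and GPC5 from 366 ± 18.7 to 198 ± 18.7 and from 333 ± 3.52 to 165 ± 10.3. SPOCK1, a testican proteoglycan, fell from 254 ± 9 to 131 ± 0.819 and from 242 ± 12.6 to 130 ± 4.33, while ADAMTSL1, THSD4 and EYS rose.

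Of the common fragile site genes 29 of 43 tested fell (67.4%, against 59.6% of all giant genes) and 8 rose in U2OS-AsiSI, and 30 (69.8%, against 63.3%) and 10 in U2OS, which is near the share of giant genes at large. WWOX, the oxidoreductase gene of the FRA16D site, had 367, 390 and 400 CPM in U2OS siCtrl against 169, 179 and 175 in U2OS siINTS11, and 326, 318 and 301 against 144, 138 and 143 in U2OS-AsiSI, a fall of 2.21-fold and 2.24-fold. FHIT, of the FRA3B site, fell from 125 to 69.7 CPM and from 113 to 60.9, and IMMP2L, a mitochondrial peptidase, from 316 to 180 and from 297 to 163. The 46 tested genes in no role list gave 28 falls and 8 rises in U2OS-AsiSI. Since the 11 role lists overlap, a gene can count in more than 1.

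The siINTS11 effect differed between the lines at 7 of the 218 giant genes (3.21%, against 3.87% of all 21521 genes tested), 3 with a higher log2 fold change in U2OS-AsiSI (1.38%, against 0.762% of all genes) and 4 with a lower one (1.83%, against 3.1%). At an unadjusted p under 0.05 there were 44 (20.2%, against 18.6% of all genes), so neither share of giant genes lay far from that of all genes. The median difference in log2 fold change was -0.06 in the giant genes and -0.05 over all genes tested. With DESeq2's size factors these medians were -0.03 and -0.02. SLIT3 rose more in U2OS-AsiSI, by 0.28 ± 0.06 on the log2 scale (adjusted p 0.00628), CTNND2 fell less, by 0.27 ± 0.07 (0.0248), and PTPRN2 was higher by 0.23 ± 0.06 (0.0299). DLEU1, a non-coding gene deleted in leukaemia, rose in both lines, from 88.6 ± 5.05 to 110 ± 3.59 CPM in U2OS and from 76.6 ± 0.899 to 83.7 ± 1.29 in U2OS-AsiSI, and ZNF385D, a zinc finger gene, fell from 43.7 ± 2.34 to 36.3 ± 1.83 and from 36.3 ± 1.56 to 25.2 ± 1.55. LSAMP, with a difference of -0.35 ± 0.09 (0.0284), and OFCC1, with -0.74 ± 0.20 (0.0401), were the other two. The 4 lower calls depended on the test and its settings: by DESeq2, with DESeq2's size factors or with only genes of a mean count of at least 50, no giant gene was called with a lower effect in U2OS-AsiSI. Leaving out any of 6 single libraries also left no such call, namely replicate 1 or 2 of U2OS-AsiSI siCtrl, replicate 2 or 3 of U2OS-AsiSI siINTS11, replicate 1 of U2OS siCtrl or replicate 3 of U2OS siINTS11. The higher calls depended on single libraries too. They fell from 1.38% to 0.459% of giant genes without replicate 2 of U2OS-AsiSI siCtrl or replicate 3 of U2OS-AsiSI siINTS11. The same share was left without replicate 1 of U2OS siCtrl or replicate 1 of U2OS siINTS11. By DESeq2 it was 2.20%.

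Between the lines, giant genes tended to be lower in U2OS-AsiSI with OHT than in U2OS. With siCtrl 108 of 218 were lower (49.5%, against 17.2% of all 19935 genes tested) and 11 were higher (5.05%, against 17.8%). With siINTS11 114 were lower (52.3%, against 21.4% of 20802 genes) and 14 were higher (6.42%, against 22.2%). The median log2 fold change was -0.15 in both comparisons. The line, the nuclease and OHT differ together and cannot be told apart. Genes of 300 to 600 kb gave a like picture with siCtrl, 50.7% lower and 5.42% higher, while of genes below 30 kb 4.42% were lower and 36.5% higher. With library totals as the scale, 38.5% of giant genes were lower and 10.6% higher with siCtrl, and 43.6% and 10.6% with siINTS11. Without replicate 1 of U2OS-AsiSI siCtrl, 3.21% were higher with siCtrl.

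**Figure D5:**
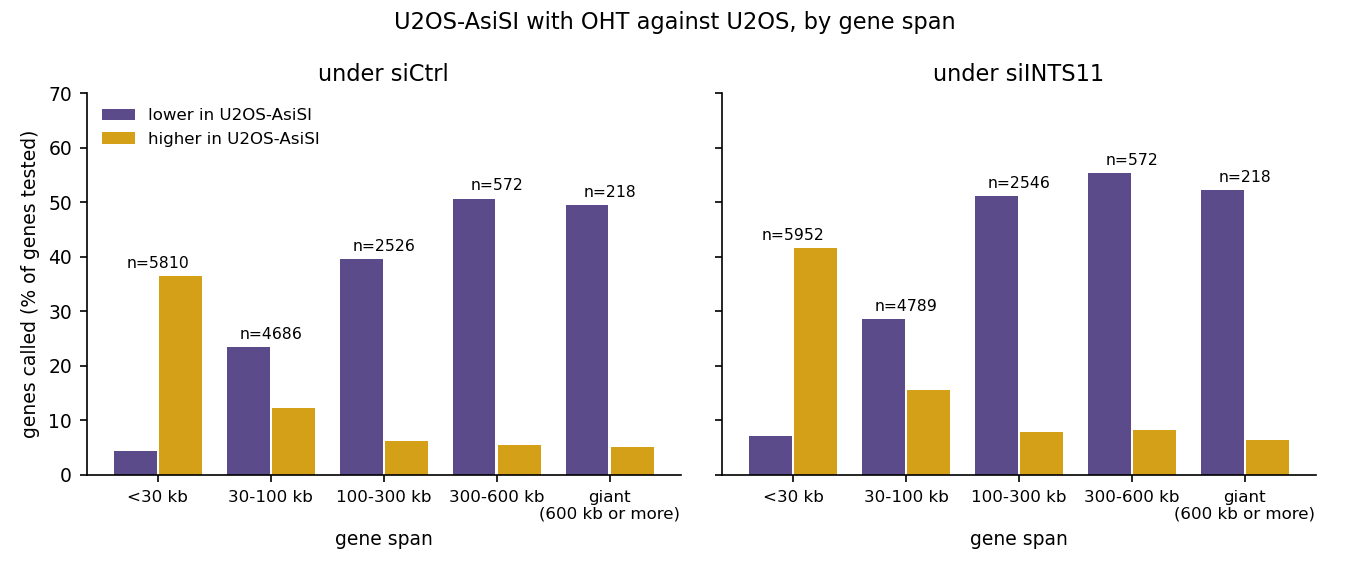
Share of tested genes called lower (violet) or higher (yellow) in U2OS-AsiSI with OHT than in U2OS, in % of the genes tested, under siCtrl (left) and siINTS11 (right), for protein-coding genes in 4 classes of span and for the giant genes. n is the number of genes tested. Under siCtrl the violet bars climb from 4.42% below 30 kb to 50.7% at 300 to 600 kb, with the giant genes at 49.5%, and the yellow bars fall from 36.5% to 5.05%.

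DISC1FP1 was the giant gene with the greatest difference, at 113 ± 1.24 CPM in U2OS siCtrl and 70.5 ± 3.26 in U2OS-AsiSI siCtrl, a log2 fold change of -0.66 ± 0.04, and -0.81 ± 0.06 with siINTS11. HPSE2, a heparanase relative, had 8.11, 8.55 and 9.69 CPM in U2OS siCtrl and 5.77, 5.67 and 5.81 in U2OS-AsiSI siCtrl, and 7.24, 7.91 and 7.47 against 4.94, 4.07 and 4.85 with siINTS11. PCDH9, a protocadherin, had 156 ± 10.5 and 104 ± 3.99 CPM with siCtrl and 86.4 ± 3.98 and 60.7 ± 3.92 with siINTS11. CLSTN2, a calsyntenin, was lower in U2OS-AsiSI by a log2 fold change of -0.40 ± 0.05 with siCtrl and -0.32 ± 0.05 with siINTS11. CADM2, an adhesion protein, had -0.43 ± 0.14 with siCtrl (adjusted p 0.0169) and -0.17 ± 0.15 with siINTS11 (0.378), on 46 to 111 reads per library. CNBD1 had -0.29 ± 0.10 and -0.62 ± 0.09, OFCC1 0.13 ± 0.16 and -0.58 ± 0.14, and LSAMP -0.35 ± 0.07 and -0.67 ± 0.05.

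A few giant genes were higher in U2OS-AsiSI. NAV3, a neuron navigator protein on microtubules, had 377, 384 and 423 CPM in U2OS siCtrl against 538, 507 and 565 in U2OS-AsiSI siCtrl, and 345, 314 and 333 against 435, 433 and 377 with siINTS11. FRMD4A, a FERM domain scaffold, had 468 ± 36.6 against 574 ± 9.22 with siCtrl and 417 ± 10.1 against 570 ± 24.1 with siINTS11. DCC was higher by 0.33 ± 0.08 with siCtrl and 0.17 ± 0.06 with siINTS11 on the log2 scale, IL1RAPL1, a synaptic receptor of the interleukin 1 family, by 0.32 ± 0.10 and 0.11 ± 0.05, and THSD4, a matrix protein, by 0.28 ± 0.09 and 0.09 ± 0.06. For the last 2 only the difference with siCtrl passed the test, and the change in that difference was not called (adjusted p 0.36 and 0.255).

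Reads over giant genes were counted by strand. 471 genes nested on the same strand inside giant genes had no read in any library, and 424 of 798 nested on the opposite strand had reads. How reads shared by genes of 1 strand were treated is not given in the sources used here, so the level of a giant gene may or may not include its shared part. 44 giant genes share no base with another gene of their strand, 17 share more than 10% of their span and the median share was 0.133%. Among the 44 that share none, 56.8% fell and 11.4% rose in U2OS-AsiSI, and 68.2% and 22.7% in U2OS. Across all tested giant genes the shared part of the span had a Spearman's rho of -0.03 with the log2 fold change in each line.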

How the data were processed

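TT-seq was done on 12 libraries, 3 in each of 4 groups, with a stranded library kit per the labels' protocols. The authors deposited raw counts per gene over whole gene spans, 1 column per library, in the layout of featureCounts per the file headers. Trimmomatic 0.36, STAR 2.7, deepTools, featureCounts and hg38 are named per the submitters' processing notes, and their settings are not given in the sources used here. Totals were 20704611 to 38065726 counts. Count models were fitted to the whole table with edgeR 4.0.16 in R 4.3.3 (filterByExpr, TMM, robust quasi-likelihood F-test, two-sided), separately for each of 5 comparisons, and calls were made at a Benjamini-Hochberg adjusted p of 0.05 over all genes tested. CPM were scaled by TMM over the 12 libraries, and span RPKM are CPM per kb of span. Fits were tested on simulated data. The alternatives were DESeq2 1.42.0, its size factors in edgeR, library totals, 2 other count filters, thinning, the replicate number as a block, leaving out each library and 4 other definitions of a giant gene. Figures were drawn with matplotlib 3.10.9.

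Of the 221 genes, 218 matched GENCODE 29, which gave gene types, and promoters came from RefSeq (GRCh38.p14). The genes, role lists and tests were chosen with earlier results of these data known. Genes named with values were the 5 longest, the 10 greatest falls and 10 greatest rises in U2OS-AsiSI among genes called the same way in both lines whose siRNA groups did not overlap and whose higher group had a mean of at least 100 reads, up to 3 per role list by adjusted p, those called in the difference between the lines, up to 5 each way in each comparison of lines, the 2 nearest the length limit on either side, and the 5 of highest level. Other named genes, among them members of families, were chosen after their values were seen. A few genes that this rule or the lists cover are not reported here by name.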

Additional observations from a re-analysis of the deposited data

Results flagged for a closer look

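The siINTS11 effect differed between U2OS-AsiSI and U2OS, by the test of the difference over all 12 libraries, at 7 giant genes (3.21%, against 3.87% of all genes). The 4 calls with a lower effect in U2OS-AsiSI were absent by DESeq2, with its size factors, at a mean count of at least 50 and without any of 6 single libraries. Calls with a higher effect were 1.38% of giant genes. They fell to 0.459% without certain single libraries, such as replicate 2 of U2OS-AsiSI siCtrl, and were 2.20% by DESeq2. SLIT3 rose in both lines, and its log2 fold change was 0.28 ± 0.06 (SE) higher in U2OS-AsiSI. CTNND2 fell in both lines, and its log2 fold change was 0.27 ± 0.07 higher in U2OS-AsiSI. PTPRN2 rose in U2OS-AsiSI and was not called in U2OS, with a difference of 0.23 ± 0.06. ZNF385D fell in both lines with a difference of -0.30 ± 0.08, and DLEU1 rose in both with a difference of -0.23 ± 0.06. LSAMP rose in U2OS and was not called in U2OS-AsiSI, with a difference of -0.35 ± 0.09. OFCC1, a little transcribed gene, had a log2 fold change of 0.86 in U2OS and 0.15 (adjusted p 0.366) in U2OS-AsiSI, with a difference of -0.74 ± 0.20 (adjusted p 0.0401).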

How the results depend on the processing

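With library totals alone the share of giant genes that rose in U2OS-AsiSI was 30.3%, the median log2 fold change was -0.12 in U2OS-AsiSI and -0.09 in U2OS, and in the comparison of lines 10.6% were higher with either siRNA, with medians of -0.09 (siCtrl) and -0.10 (siINTS11). RBFOX1 (0.19) and FRMD4A (0.17) in U2OS-AsiSI, and PTPRN2 (0.13), FRMD4A (0.04) and CLSTN2 (0.03) in U2OS, changed sign on that scale. For giant genes of at least 1 Mb the median was -0.14 in U2OS-AsiSI, where 46.3% fell, and -0.20 in U2OS, where 49.3% fell, and among genes with no overlap on their strand 11.4% rose in U2OS-AsiSI. The share of counts in giant genes, in the order U2OS siCtrl, U2OS siINTS11, U2OS-AsiSI siCtrl and U2OS-AsiSI siINTS11, was 7.70%, 6.52%, 7.32% and 6.14% from 500 kb, 1.43%, 1.26%, 1.35% and 1.17% from 1 Mb, and 1.00%, 0.82%, 0.952% and 0.783% without overlap. Calls with a lower siINTS11 effect in U2OS-AsiSI than in U2OS were 0% by DESeq2, with its size factors and at a mean count of at least 50, 0.905% without a count filter, 0.957% in protein-coding genes and 4.55% without overlap. Calls with a higher effect were 2.20% by DESeq2, 3.38% at a mean count of at least 50, 2.26% without a filter and 2.27% without overlap. The median difference was 0.01 at a mean count of at least 50 and -0.01 without a filter. With siCtrl, genes higher in U2OS-AsiSI than in U2OS were 3.32% by DESeq2 and 2.27% without overlap. Leaving out single libraries gave medians of -0.32 to -0.25 in U2OS, 0% to 3.21% lower and 0.459% to 1.83% higher in the difference between the lines, and 3.21% to 6.88% higher between the lines with siCtrl. In the siRNA comparisons the deviations of same-numbered libraries had correlations of -0.045 to 0.1375, the highest between the replicates 1 of U2OS-AsiSI. Those of libraries with unlike numbers ran from -0.0992 to 0.0793. With the replicate block 6.42% of giant genes had a lower and 2.29% a higher effect in U2OS-AsiSI. Over all 21521 genes tested the block gave 1035 lower and 246 higher calls, against 668 and 164 without it. Giant genes called in the siRNA comparisons with the block numbered 131 lower and 40 higher in U2OS-AsiSI and 138 and 47 in U2OS. The cause of these changes was not tested. Genes under 100 reads per library limit what could be called.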
